A study of Mus musculus with 2 samples.

Results

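Mature goblet cells are the mucus-filled secretory cells of the intestinal lining, and 947 of the 7784 barcodes kept from a single-cell RNA count of mouse duodenal crypts were taken as such. A barcode was a member when Clca1, Zg16 and Fcgbp, transcripts of goblet cell mucus proteins, together made up at least 0.5% of its UMIs (unique molecular identifiers, each read as 1 captured RNA molecule), when the Paneth cell transcripts Lyz1 and Defa24 made up under 5%, when the enteroendocrine transcripts Chga and Chgb had under 5 UMIs, and when the leukocyte transcript Ptprc had none. Of 12756 barcodes, 7784 were kept for having 500 or more genes and no more than 25% mitochondrial UMIs. The series holds duodenal crypts of wild-type mice in groups labelled ES and NT, letters that the labels do not spell out, in a study whose title links chronic stress to intestinal stem cell ageing. Each group was 1 library made from the pooled crypts of 5 animals, released with EDTA and broken into single cells with TrypLE. Age and sex of the animals and the stress procedure are not given in the sources used here.

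Barcodes end in the number 2 or 1, taken here to mark the libraries, and nothing in the sources used here says which number is ES and which is NT. All comparisons between the libraries are therefore of suffix 2 with suffix 1, with no direction between ES and NT. With 1 library a group there was no test, and every interval below covers counting error only, not differences between animals. Barcodes of suffix 2 gave 529 members of 3727 kept (14.2%, 95% exact interval 13.1 to 15.4), and those of suffix 1 gave 418 of 4057 (10.3%, 9.38 to 11.3).

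Goblet cells make and release the mucus that covers the intestine. Their main product, the mucin Muc2, is folded and linked by disulphide bonds in the endoplasmic reticulum, coated with O-linked sugars in the Golgi, packed into granules and released in a steady flow or in bursts. In the crypt they arise from progenitors in which the factor Atoh1 is switched on and Notch signalling is low, and Spdef and Klf4 act later in their maturation.

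The goblet part of the label was checked against Muc2, which the rule did not use. Muc2 alone does not show whether the cells are mature. Muc2 had 5104 counts per 1000000 UMIs (CPM) in goblet cells of suffix 2 and 3607 CPM in those of suffix 1. In the other kept cells it had 244 CPM in suffix 2 and 122 CPM in suffix 1, and in barcodes with T cell transcripts and no Epcam, which should lack it, 93.2 CPM in suffix 2 and 33.8 CPM in suffix 1. Members had a median of 10648 UMIs and 3447 genes in suffix 2, and of 9179.5 UMIs and 3115 genes in suffix 1. The lymphocyte barcodes had medians of 3026 UMIs in suffix 2 and 2322.5 in suffix 1.

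Transcripts of other cell types were also found in the members. The 5 Paneth cell markers summed to 8906 CPM in goblet cells of suffix 2 and 6757 CPM in those of suffix 1, against 2938 and 4373 CPM in the lymphocyte barcodes of suffix 2 and suffix 1, and none of the 5 was at 0. The 4 T lymphocyte markers summed to 57.6 CPM in members of suffix 2 and 37.5 CPM in those of suffix 1, with Ptprc at 0 by the rule. The 4 tuft cell markers summed to 48.1 and 10.1 CPM, and the 3 stromal markers to 0.536 and 0.236 CPM, in members of suffix 2 and suffix 1. Doublets were not called, 5 members (3 of suffix 2 and 2 of suffix 1) have a barcode sequence found under both suffixes, and the part of either in the results was not tested beyond the alternatives listed at the end.

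The share of the transcripts used by the rule ran without a gap across its threshold. Of all kept barcodes 5752 lay under 0.1%, 58 between 0.4 and 0.5%, and 195 between 0.5 and 1%. The 5 members nearest the threshold had just over 0.50 to 0.507%, and the 5 barcodes nearest below it had 0.485 to 0.499%. In members the median share was 2.81% in suffix 2 and 2.21% in suffix 1, and the highest was 32.2%. Another 71 kept barcodes passed 0.5% without being members, of which 39 were left out for Lyz1 and Defa24, 8 for Chga and Chgb, and 27 for Ptprc, with some left out on more than 1 count.

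**Figure D1:**
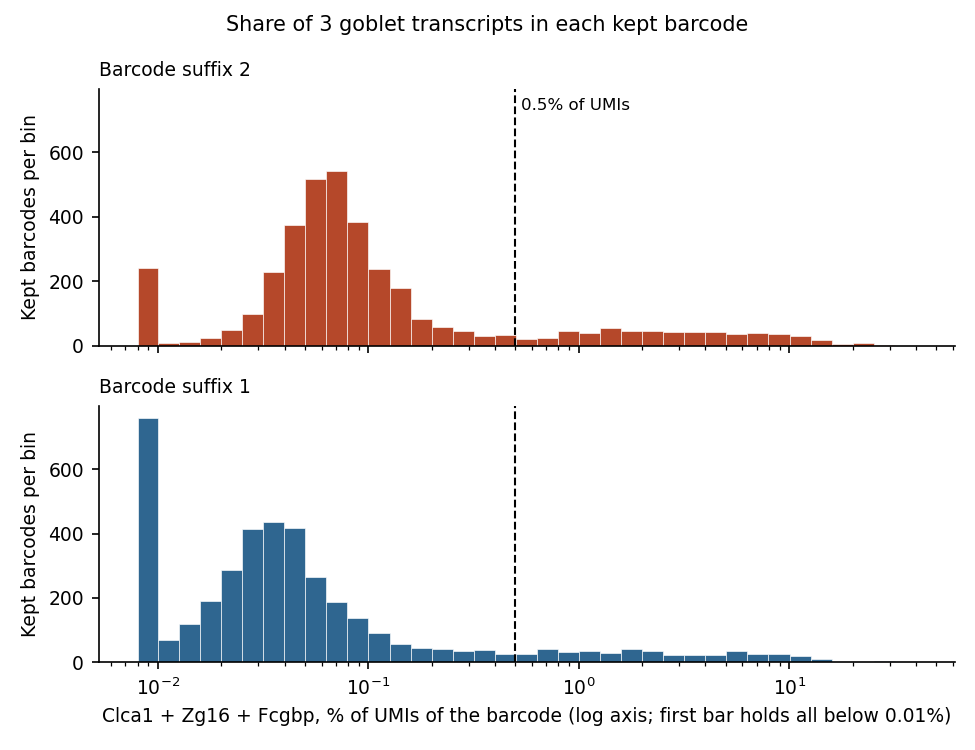
Number of kept barcodes (vertical axis) by the percentage of their UMIs from Clca1, Zg16 and Fcgbp (horizontal axis, log scale), for suffix 2 above and suffix 1 below, with the 0.5% threshold as a dashed line. The large group of barcodes lies below 0.2% and a broad low shoulder runs on across the threshold, with 58 barcodes between 0.4 and 0.5% and 195 between 0.5 and 1%.

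Single goblet cells differed widely in their mucus transcripts. The cells were not thinned here, had 690 to 53258 UMIs each, and 156 of them had under 2000. Counting error and depth thus enter the spread, and their part was not tested. Muc2 had a median of 5252 CPM per cell in suffix 2, with 80% of cells between 959 and 15578 CPM, and a median of 2500 CPM in suffix 1, with 80% between 131 and 10542 CPM. Zg16, a gene of the rule, varied more, with a median of 3047 CPM and a 90th percentile of 44833 CPM in suffix 2, and a median of 5725 CPM and a 90th percentile of 44956 CPM in suffix 1. Agr2, the disulphide isomerase that mucin folding needs, was more even, with 80% of cells between 1626 and 15403 CPM in suffix 2 and between 1240 and 14954 CPM in suffix 1.

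What goblet cells held beyond the transcripts that chose them was described against the 6837 other kept cells. Across 12040 genes, 617 (5.12%) were at least 2-fold higher in goblet cells in both suffixes with the interval clear of 1, and 892 (7.41%) were at least 2-fold lower. The median gene was slightly lower in goblet cells, by a log2 ratio of -0.10 in suffix 2 and -0.11 in suffix 1. Since the cells were chosen on their own transcripts, these ratios describe the members and support nothing about the choice.

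Secreted mucus proteins were mostly higher. The list of them holds Clca1, Zg16 and Fcgbp, which chose the cells, and of its 13 other measured genes 7 were past the fold upwards and 1 downwards. The small trefoil peptide Tff3 had 16721 CPM in goblet cells and 739 CPM in other cells of suffix 2, and 13881 CPM in goblet cells and 554 CPM in other cells of suffix 1, which is 22.6-fold and 25.1-fold higher. Agr2 was 32.9-fold higher in suffix 2 and 30.8-fold higher in suffix 1, Muc2 20.9-fold and 29.5-fold, and the Kazal-type inhibitor Spink4 9.14-fold and 9.98-fold. Retnlb, a resistin-like molecule that is induced in goblet cells by type 2 immune signals and that was named after its values were seen, was low at 57.6 CPM in goblet cells of suffix 2 and 22.6 CPM in those of suffix 1, yet 13.8-fold and 13.3-fold above other cells. With each cell thinned to 2000 UMIs, 8.13% of goblet cells in suffix 2 and 3.87% of those in suffix 1 held a UMI of it, against 1.08% and 0.374% of other cells in suffix 2 and suffix 1, and no lymphocyte barcode.

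Factors of the secretory and goblet lineage were also higher, 14 of 20 past the fold upwards and 1 downwards. Atoh1, the factor that commits progenitors to secretory fate, had 215 CPM in goblet cells and 10.0 CPM in other cells of suffix 2, and 164 CPM in goblet cells and 8.29 CPM in other cells of suffix 1. Spdef, an ETS factor of goblet and Paneth cell maturation, was 21.9-fold higher in suffix 2 and 20.7-fold higher in suffix 1. Creb3l1, a membrane-bound factor that is cut and released under secretory load, was 19.2-fold and 16.1-fold higher, and the zinc finger factor Klf4 14.9-fold and 8.56-fold. Xbp1, which serves secretory cells of many kinds, was 2.20-fold and 2.23-fold higher. Goblet cells also held the Notch ligands Dll1, 8.49-fold and 7.43-fold above other cells, and Dll4, 8.35-fold and 7.92-fold, while Hes1, a target of Notch signalling, was at 80.3 CPM in goblet cells and 169 CPM in other cells of suffix 2, and at 154 CPM in goblet cells and 273 CPM in other cells of suffix 1, just short of the fold in suffix 1.

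Enzymes that build the sugars of mucins were higher as a group, with 25 of 38 genes past the fold upwards, 2 downwards, and a median log2 ratio of 1.65 in suffix 2 and 1.49 in suffix 1, against -0.10 and -0.11 over all genes. Galnt7, which adds the sugar GalNAc, was 6.40-fold higher in suffix 2 and 5.11-fold in suffix 1, C1galt1, which makes the core 1 structure, 5.70-fold and 4.82-fold, and Gcnt3, which branches it, 21.0-fold and 19.6-fold. The sulphate carrier Slc26a2 was 5.45-fold and 4.49-fold higher. Papss2, named after its values were seen, makes the sulphate donor and went the other way, with 59.5 CPM in goblet cells and 269 CPM in other cells of suffix 2, and 74.5 CPM in goblet cells and 258 CPM in other cells of suffix 1.

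The folding machinery of the endoplasmic reticulum followed, 16 of 25 genes past the fold upwards and none downwards. Txndc5, a disulphide isomerase, had 1104 CPM in goblet cells and 70.2 CPM in other cells of suffix 2, and 854 CPM in goblet cells and 66.2 CPM in other cells of suffix 1, 15.7-fold and 12.9-fold higher. The broadly used chaperone Hspa5 was 2.49-fold and 2.39-fold higher and the isomerase Pdia3 2.76-fold and 2.61-fold, whereas P4hb, at 1.40-fold and 1.47-fold, was not past the fold. Of 17 genes of the unfolded protein response 8 were past the fold upwards, led by Ern2, the form of the stress sensor IRE1 found in mucus-making cells, at 24.8-fold in suffix 2 and 20.8-fold in suffix 1. Herpud1, which takes part in removing misfolded proteins, was 3.77-fold and 3.27-fold higher. In the transport steps from the endoplasmic reticulum to the Golgi 13 of 37 genes were past the fold upwards, among them the retrieval receptor Kdelr2 at 3.01-fold and 2.81-fold and the translocon subunit Sec61b at 2.13-fold and 2.12-fold.

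Granule and exocytosis genes had 15 of 27 members past the fold upwards and 3 downwards. Rep15, an effector of the small GTPase Rab15, had 427 CPM in goblet cells and 11.1 CPM in other cells of suffix 2, and 321 CPM in goblet cells and 7.57 CPM in other cells of suffix 1. Rab3d, a GTPase of secretory granules, was 7.24-fold and 7.27-fold higher, and its relative Rab27a, named after its values were seen, 12.7-fold and 13.8-fold. Sytl2, a protein that ties such GTPases to membranes, was 23.5-fold higher in both suffixes. The actin-severing protein Scin was 16.1-fold higher in suffix 2 and 20.6-fold in suffix 1, and the calpain protease Capn9 30.4-fold and 40.5-fold, whereas the microvillus protein Vil1 was at 0.796-fold and 0.917-fold and not past the fold.

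Genes with high lower bounds also included channels, proteases and membrane proteins. Fer1l6, of the ferlin family of membrane fusion proteins, was 39.4-fold higher in suffix 2 and 53.1-fold in suffix 1, and Myof of the same family 26.9-fold and 31.9-fold. The potassium channel subunit Kcnk6 was 35.3-fold and 31.8-fold higher, the phospholipase Pla2g10 31.1-fold and 36.3-fold, the aspartyl protease Bace2 25.2-fold and 31.1-fold, and Id4, which binds and blocks factors of the Atoh1 kind, 40.6-fold and 27.0-fold. Of 38 genes of a list of reported goblet genes, the goblet signature, 35 were past the fold upwards and none downwards. They included the chemokine Ccl9 at 19.2-fold and 15.8-fold and the kallikrein Klk1 at 13.9-fold and 11.6-fold. The signature shares genes such as Scin, Rep15 and Sytl2 with the lists above. It was chosen with earlier results of these data known, so its count is a description only.

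Ion transport genes divided, with 6 of 29 past the fold upwards and 10 downwards. Guca2a, the hormone guanylin, had 2751 CPM in goblet cells and 130 CPM in other cells of suffix 2, and 2066 CPM in goblet cells and 81.8 CPM in other cells of suffix 1. Lrrc26 and Kcnma1, the helper and the pore subunit of a large-conductance potassium channel, were both higher in goblet cells, Lrrc26 11.5-fold in suffix 2 and 13.1-fold in suffix 1, and Kcnma1 8.38-fold and 11.9-fold at only 15.6 and 15.1 CPM in goblet cells of suffix 2 and suffix 1. Cftr, the chloride channel of crypt fluid secretion, was lower, at 41.8 CPM in goblet cells and 157 CPM in other cells of suffix 2, and at 67.9 CPM in goblet cells and 172 CPM in other cells of suffix 1. Clca3b, a relative of Clca1, was lower too, at 0.388-fold in suffix 2 and 0.404-fold in suffix 1. Lrrc26, Kcnma1 and Cftr were named after their values were seen.

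A list of receptors for cytokines and for signals to secrete had 2 of 21 genes past the fold upwards and 1 downwards. It also holds genes that are not receptors, such as the cytokine Il18 and the adaptor Myd88. Chrm1, a muscarinic acetylcholine receptor named after its values were seen, had 44.9 CPM in goblet cells and 1.39 CPM in other cells of suffix 2, and 36.6 CPM in goblet cells and 1.43 CPM in other cells of suffix 1. Ramp1, a subunit of the receptor for the nerve peptide CGRP, was 14.3-fold and 12.9-fold higher. The interleukin receptor chain Il13ra1 was at 1.89-fold and 1.87-fold and Gucy2c, the receptor of guanylin, at 0.996-fold and 1.02-fold, neither past the fold.

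Antimicrobial products were mostly lower or no higher in goblet cells than in other cells, with 2 of 22 past the fold upwards and 11 downwards. This list holds Lyz1 and Defa24, which the rule capped in goblet cells, and the other cells include the Paneth cells. The downward count thus partly follows from the choice of cells. Against the early secretory barcodes, described below, 4 of 19 were past the fold upwards and none downwards. The angiogenin Ang4, which kills bacteria, had 1262 CPM in goblet cells and 1316 CPM in other cells of suffix 2, and 702 CPM in goblet cells and 777 CPM in other cells of suffix 1. Those levels were above the 140 and 110 CPM of the lymphocyte barcodes in suffix 2 and suffix 1. The lectin Itln1 was at 0.585-fold and 0.515-fold and the antibody carrier Pigr at 0.861-fold and 0.855-fold, neither past the fold. The defensin Defa30 was 0.140-fold and 0.102-fold, at 999 CPM in goblet cells of suffix 2 and 749 CPM in those of suffix 1, against 779 and 1155 CPM in the lymphocyte barcodes of suffix 2 and suffix 1. Defensin genes have near-identical copies, so the counts of each are uncertain.

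**Figure D2:**
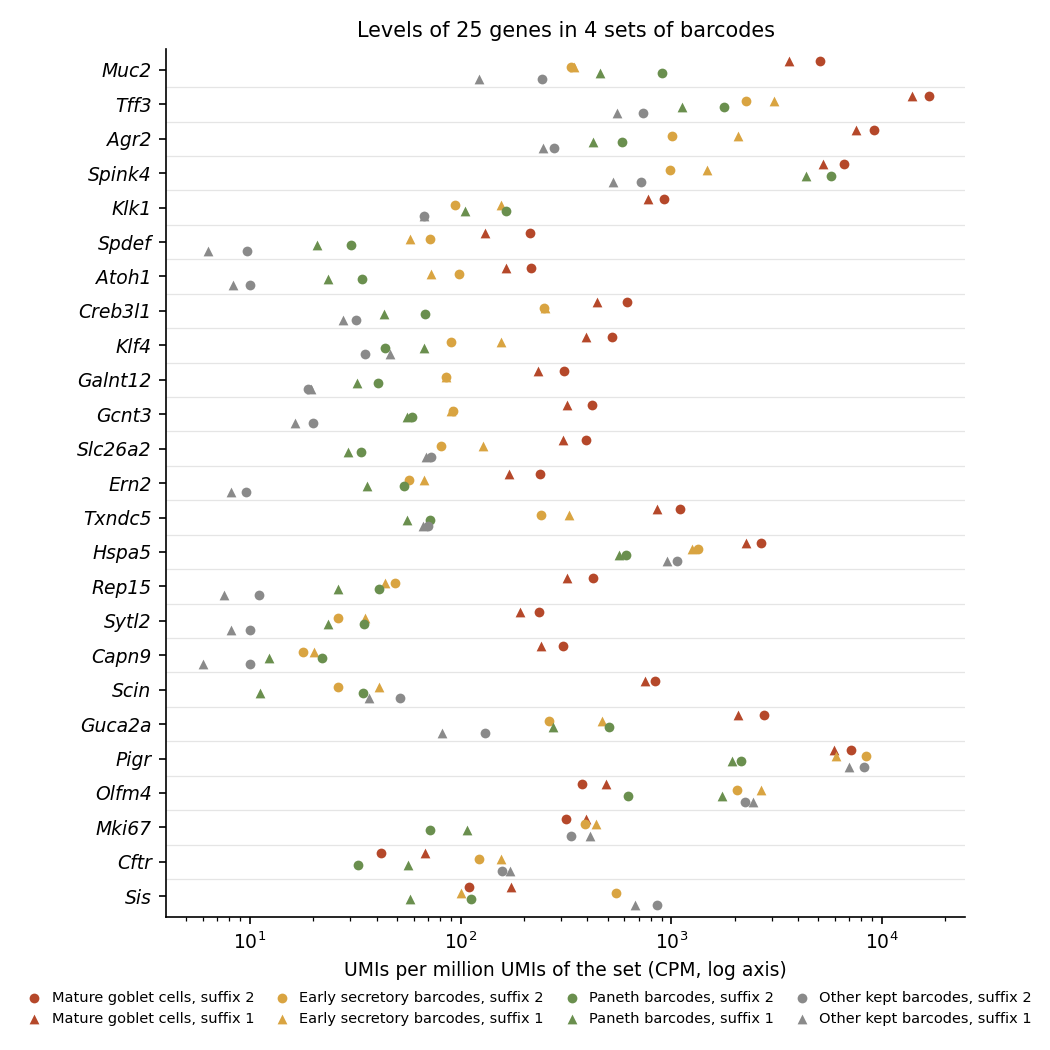
Levels (CPM, log axis) of 25 genes, 1 row each, in mature goblet cells, early secretory barcodes, Paneth barcodes and all other kept cells, with circles for suffix 2 and triangles for suffix 1. Goblet products such as Muc2 (5104 CPM in goblet cells and 244 CPM in other cells of suffix 2) lie far to the right in goblet cells, while Olfm4 lies to the left in goblet cells (377 CPM in goblet cells and 2229 CPM in other cells of suffix 2).

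Genes of the absorptive and stem cells were lower in goblet cells in summed counts. Of 24 enterocyte genes 18 were past the fold downwards and none upwards, with the brush border peptidase Anpep at 0.208-fold in suffix 2 and 0.330-fold in suffix 1. Of 15 stem cell genes 7 were past the fold downwards and none upwards. Olfm4, a secreted glycoprotein of the crypt base, had 377 CPM in goblet cells and 2229 CPM in other cells of suffix 2, and 490 CPM in goblet cells and 2453 CPM in other cells of suffix 1. Lgr5, the R-spondin receptor of stem cells, was at 3.93 CPM in goblet cells of suffix 2 and 4.72 CPM in those of suffix 1, 0.111-fold and 0.106-fold.

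Cell cycle genes were somewhat lower in sum than in other cells, without passing the fold. The S phase list summed to 834 CPM in goblet cells and 1140 CPM in other cells of suffix 2, and to 1020 CPM in goblet cells and 1474 CPM in other cells of suffix 1. The mitosis list summed to 2085 CPM in goblet cells and 2591 CPM in other cells of suffix 2, and to 2611 CPM in goblet cells and 3078 CPM in other cells of suffix 1. None of 20 S phase genes and none of 22 genes of G2 and mitosis was past the fold in either direction, and the proliferation marker Mki67 was at 0.941-fold in suffix 2 and 0.960-fold in suffix 1. With each cell thinned to 2000 UMIs, at least 2 UMIs of the mitosis list were found in 50.5% of goblet cells of suffix 2 (45.9 to 55.2) and 53.0% of those of suffix 1 (47.5 to 58.4), against 52.3% and 58.6% of other cells in suffix 2 and suffix 1. The S phase list gave 27.0% of goblet cells in suffix 2 and 37.8% in suffix 1, against 41.7% and 51.0% of other cells. Thinning left out 74 members of suffix 2 and 82 of suffix 1 with fewer UMIs. Without thinning the mitosis list gave 86.8% of goblet cells in suffix 2 and 85.6% in suffix 1. Paneth barcodes, set beside them because mature Paneth cells do not divide, gave 32.7% in suffix 2 and 36.4% in suffix 1 at 2000 UMIs. Their 10 most abundant genes held 58.1% of UMIs in suffix 2 and 56.8% in suffix 1, leaving fewer for other genes.

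The nearest population was 152 early secretory barcodes, 65 of suffix 2 and 87 of suffix 1, which passed the same exclusions with under 0.5% of the rule transcripts and held at least 3 UMIs of Atoh1, Spdef and Creb3l1 together. Against them 343 of 9043 genes (3.79%) were past the fold upwards in goblet cells and 103 (1.14%) downwards. The early barcodes were deeper, with median UMIs of 17471 in suffix 2 and 22724 in suffix 1, against 10648 and 9179.5 in goblet cells, and the part of this depth in the counts was not tested beyond thinning.

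Mature products and the release machinery were higher in goblet cells than in the early secretory barcodes. The share of Clca1, Zg16 and Fcgbp set the goblet cells apart from the early barcodes. Ratios of genes that move with these transcripts, such as Muc2 and Scin, thus follow in part from the choice of cells. The ratios and list counts of this comparison are therefore a description only. Scin had 835 CPM in goblet cells and 26.1 CPM in early barcodes of suffix 2, and 755 CPM in goblet cells and 41.0 CPM in early barcodes of suffix 1, 32.0-fold and 18.4-fold higher. Muc2 was 15.3-fold higher in suffix 2 and 10.5-fold in suffix 1, Capn9 17.0-fold and 11.9-fold, and the chemokine Ccl6 14.8-fold and 9.42-fold. The granule list had 13 of 23 genes past the fold upwards, the mucus list 8 of 13 without the 3 genes of the rule, the goblet signature 28 of 37 and the O-glycosylation list 15 of 34. Folding genes parted less from the early barcodes, with 7 of 25 past the fold and Hspa5 at 2-fold in suffix 2 and 1.82-fold in suffix 1. Among lineage factors 8 of 19 were past the fold upwards and 1 downwards, with Klf4 at 5.76-fold and 2.54-fold and Xbp1, not past the fold, at 1.95-fold and 1.85-fold. The lineage list also includes Atoh1, Spdef and Creb3l1, which chose the early barcodes, so its count follows in part from that choice as well. Dll1 was at 1.60-fold and 1.43-fold and Dll4 at 1.92-fold and 1.72-fold, neither past the fold.

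Stem cell genes led the genes that were lower in goblet cells than in early secretory barcodes, 7 of 14 past the fold. Olfm4 was at 0.184-fold in suffix 2 and 0.183-fold in suffix 1. Axin2, a target of Wnt signalling, had 22.2 CPM in goblet cells and 85.7 CPM in early barcodes of suffix 2, and 27.6 CPM in goblet cells and 90.3 CPM in early barcodes of suffix 1. The stem cell factor Ascl2 was at 0.225-fold and 0.233-fold. No gene of the S phase or mitosis lists was past the fold against the early barcodes either, in which 71.9% in suffix 2 and 80.0% in suffix 1 held at least 2 UMIs of the mitosis list at 2000 UMIs.

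Paneth cells, the other granule-bearing cells of the crypt, were taken as 362 barcodes with at least 5% of UMIs from Lyz1 and Defa24, 173 of suffix 2 and 189 of suffix 1. The 10 most abundant genes held 12.2% of the UMIs of goblet cells in suffix 2 and 12.8% in suffix 1, against 58.1% and 56.8% in Paneth barcodes, which lowers the CPM of all other Paneth genes. In all 5302 of 8876 genes (59.7%) were past the fold upwards and 60 (0.676%) downwards, and the median log2 ratio was 1.37 in suffix 2 and 1.24 in suffix 1. With ratios centred on that median 258 genes were past the fold upwards and 236 downwards. Agr2 had 9164 CPM in goblet cells and 587 CPM in Paneth barcodes of suffix 2, and 7545 CPM in goblet cells and 427 CPM in Paneth barcodes of suffix 1, 15.6-fold and 17.7-fold higher. Txndc5 was 15.4-fold higher in both suffixes, and the genes with the highest bounds after the 3 of the rule included Fer1l6, Scin, Bcas1, Enpp3 and Id4. Each of the 10 genes with the lowest bounds was a defensin, apart from the pentraxin Mptx2.

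Within the mature goblet cells, 4 classes of the share of Clca1, Zg16 and Fcgbp were compared as a scale of these mucus transcripts. In suffix 2 they held 76 cells at 0.5 to 1%, 123 at 1 to 2%, 124 at 2 to 4% and 206 at 4% or more, and in suffix 1 95, 100, 79 and 144 cells. The lowest class had median UMIs of 12652 in suffix 2 and 9679 in suffix 1, the highest 9893.5 and 7878, and median mitochondrial shares were 7.08% and 8.47% in the lowest class and 4.13% and 5.05% in the highest. Their part in the differences was not tested, apart from the thinned shares. Between the highest and the lowest class 206 of 6491 genes (3.17%) were past 2-fold upwards and 486 (7.49%) downwards in both suffixes, around a median log2 ratio of -0.24 in suffix 2 and -0.18 in suffix 1.

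Muc2 followed the scale although it did not define it. Over the classes its level was 1447, 2551, 4560 and 9119 CPM in suffix 2, and 939, 1931, 2969 and 8133 CPM in suffix 1. Scin was steeper, at 128 CPM in the lowest class and 1575 CPM in the highest in suffix 2, and at 177 and 1670 CPM in suffix 1. Zg16 was the steepest gene of the rule, 65.6-fold higher in the highest class than in the lowest in suffix 2 and 26.9-fold in suffix 1, against 4.96-fold and 6.55-fold for Fcgbp. Since Zg16 and Fcgbp helped to set the classes, their rise follows in part from how the classes were made and is a description only. The stress protein Nupr1 was 13.3-fold and 10.6-fold higher and the keratin Krt20, a marker of differentiated epithelium, 5.21-fold and 6.43-fold. Without the 3 genes that set the classes the mucus list had 8 of 13 genes past the fold upwards and 2 downwards, and summed to 24656, 34311, 46085 and 70005 CPM over the classes of suffix 2 and to 19766, 28294, 38170 and 66296 CPM over those of suffix 1, and the granule list 10 of 22 upwards and 1 downwards.

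Lineage factors varied less over the classes. Atoh1 was at 191, 225, 184 and 241 CPM over the classes of suffix 2, and at 118, 127, 171 and 236 CPM over those of suffix 1. Creb3l1 was at 633, 711, 638 and 515 CPM in suffix 2 and at 381, 437, 495 and 478 CPM in suffix 1. Of 19 factors 1 was past the fold upwards and 2 downwards, and of 34 O-glycosylation genes 5 upwards and none downwards. Summed folding genes were at 19258 CPM in the lowest class and 29978 CPM in the highest in suffix 2, and at 15381 and 28116 CPM in suffix 1.

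Cell cycle genes made up the other end of the scale. In the highest class 21 of 22 mitosis genes and 14 of 16 S phase genes were past the fold downwards against the lowest class, with the topoisomerase Top2a at 0.132-fold in suffix 2 and 0.124-fold in suffix 1. At 2000 UMIs a cell, at least 2 UMIs of the mitosis list were found in 69.8%, 71.7%, 52.3% and 30.2% of cells over the classes of suffix 2, and in 79.7%, 75.6%, 47.6% and 27.0% over those of suffix 1. The 2 lowest classes lay near the 71.9% and 80.0% of the early secretory barcodes in suffix 2 and suffix 1. For the cells of those classes the name mature rests on the rule and is not borne out by this list. The highest class lay near the 32.7% and 36.4% of the Paneth barcodes in suffix 2 and suffix 1, but these shares are not on the same scale. In Paneth barcodes 10 genes held 58.1% and 56.8% of UMIs in suffix 2 and suffix 1, leaving fewer for the mitosis list. The cycle inhibitor Cdkn1a was 2.46-fold and 3.18-fold higher in the highest class. Olfm4 was at 0.271-fold and 0.197-fold and Axin2 at 0.143-fold and 0.195-fold, and 4 of 8 stem cell genes were past the fold downwards with none upwards.

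**Figure D3:**
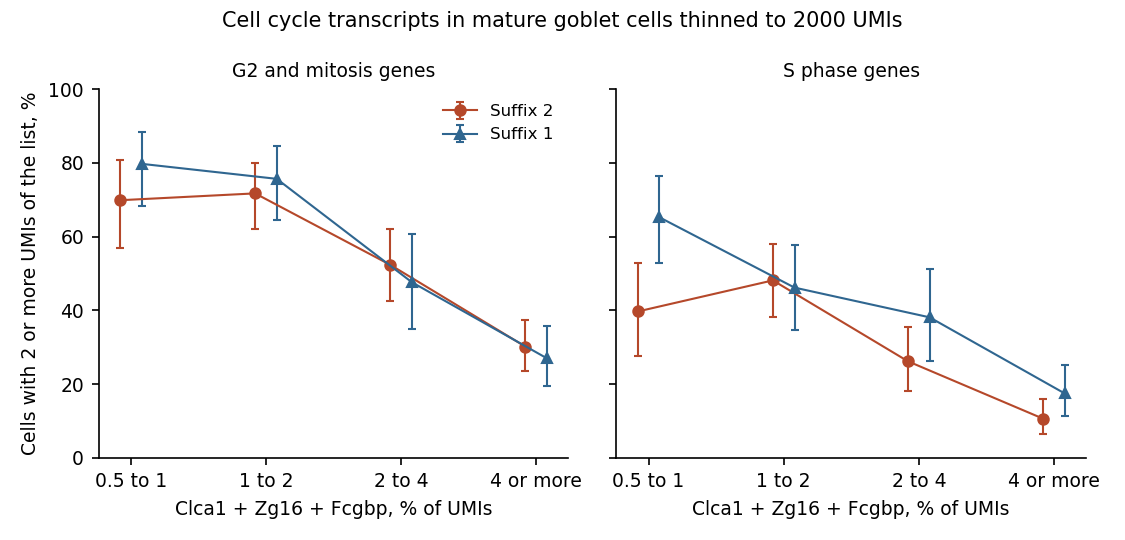
Percentage of mature goblet cells with at least 2 UMIs of the S phase list and of the mitosis list after thinning to 2000 UMIs, over 4 classes of the summed Clca1, Zg16 and Fcgbp share, with exact 95% intervals as bars, for suffix 2 and suffix 1. Mitosis list shares are 69.8% in suffix 2 and 79.7% in suffix 1 in the lowest class and 30.2% and 27.0% in the highest.

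Stress-linked lists differed in direction along the scale. Heat shock genes had 6 of 8 past the fold downwards and none upwards in the highest class, with the chaperone Hspa8 at 0.477-fold in suffix 2 and 0.407-fold in suffix 1. Immediate early genes, which respond to stimuli and to tissue dissociation within minutes, had 5 of 15 past the fold upwards and none downwards, and summed to 4440, 5297, 7184 and 9650 CPM over the classes of suffix 2 and to 5546, 7193, 8271 and 10314 CPM over those of suffix 1. Interferon-induced genes had 10 of 19 past the fold upwards and none downwards, with the antiviral regulator Irf7 at 2.80-fold and 7.10-fold. Cytosolic ribosomal protein genes summed to 33142 CPM in the lowest class and 22133 CPM in the highest in suffix 2, and to 38734 and 23986 CPM in suffix 1, with no gene of 20 past the fold.

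**Figure D4:**
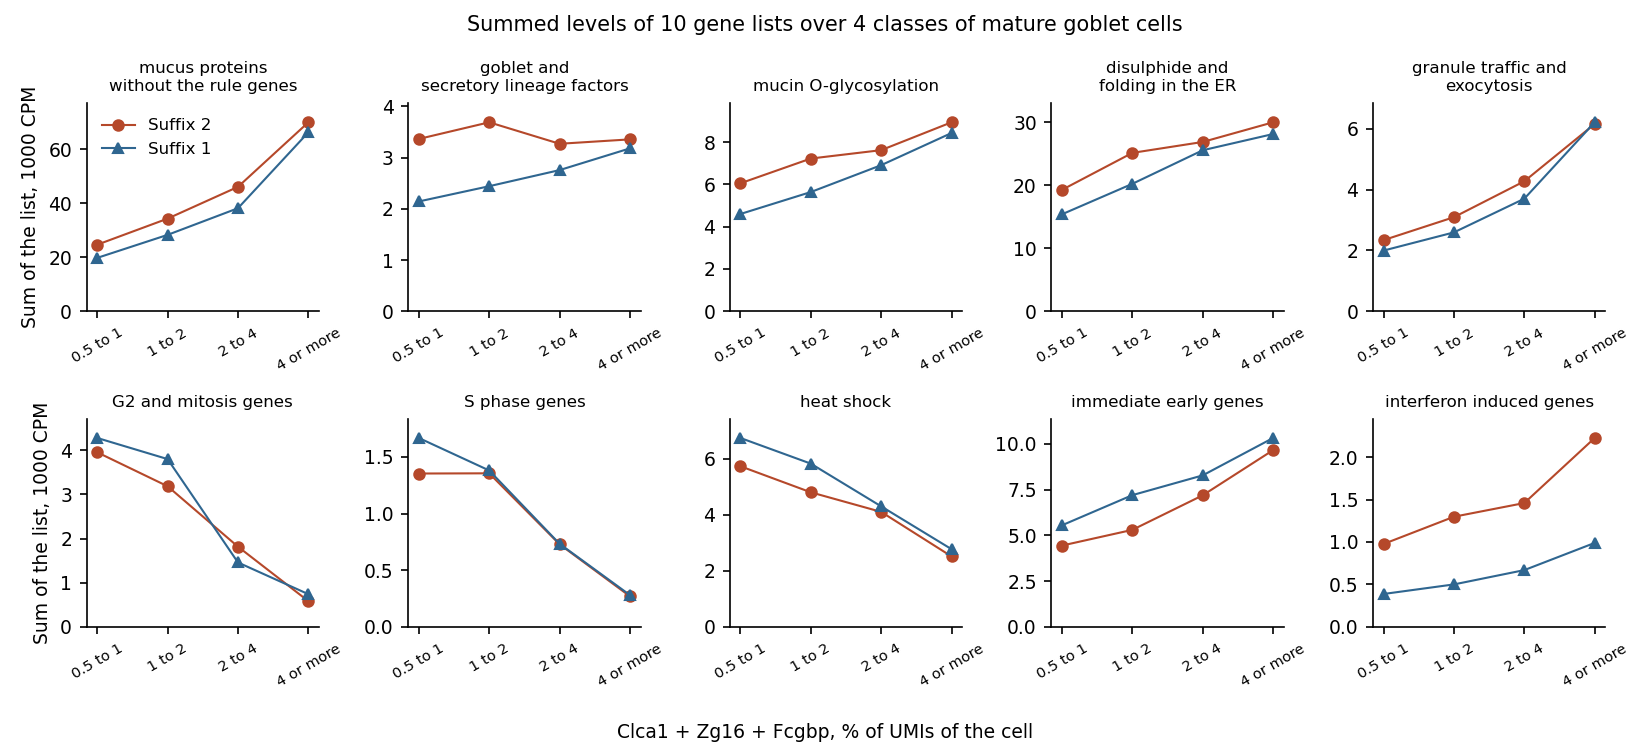
Summed levels (in units of 1000 CPM, each panel from 0 on its own scale) of 10 gene lists over 4 classes of mature goblet cells by their share of Clca1, Zg16 and Fcgbp, for suffix 2 and suffix 1. The mucus list is drawn without Clca1, Zg16 and Fcgbp, which set the classes. Mucus and granule lists are highest in the class at 4% or more, cell cycle and heat shock lists are lowest there, and the lineage factor list stays within 2144 to 3690 CPM.

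By Spearman's rho over these 8 points (4 classes by 2 suffixes), which share cells, libraries and the scale of the rule, 26 genes were most like Muc2, tied at a rho of 1. Ordered among the ties by Pearson's r, the first 10 were Fcgbp, which is a gene of the rule, Tff3, Klk1, Ms4a8a, Bace2, Spink4, Hepacam2, Appl2, Guca2a and C1galt1c1. Promoters of such genes are shown because they move together with Muc2 over the classes, and the E-boxes CAGCTG and CAGATG, the kind of site that factors like Atoh1 bind, were searched on both strands in the 300 bases from 250 before to 50 after the gene start. RefSeq promoters on GRCm38.p6 were at hand for 21 of the 27 genes, Muc2 included. CAGCTG was found in 6 of these 21 (28.6%), against 16.3% of all 32851 promoters of the table, and CAGATG in 2 of 21 (9.52%), against 17.2%. Among the first 10 and Muc2 the count for CAGCTG was 5 of 7, so it depended on the order among the ties. A match is a description of letters only. The promoters of Muc2 (chr7:141690090-141690389, plus strand), Fcgbp (chr7:28070986-28071285, plus strand) and Guca2a (chr4:119637482-119637781, plus strand) read as follows, 5′ to 3′, with E-boxes in capitals.
Muc2: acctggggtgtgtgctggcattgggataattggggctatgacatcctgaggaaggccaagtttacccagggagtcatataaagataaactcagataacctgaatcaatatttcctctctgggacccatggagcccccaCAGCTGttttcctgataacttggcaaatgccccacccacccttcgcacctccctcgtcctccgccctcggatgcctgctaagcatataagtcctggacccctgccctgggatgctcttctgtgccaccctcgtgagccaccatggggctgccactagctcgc
Fcgbp: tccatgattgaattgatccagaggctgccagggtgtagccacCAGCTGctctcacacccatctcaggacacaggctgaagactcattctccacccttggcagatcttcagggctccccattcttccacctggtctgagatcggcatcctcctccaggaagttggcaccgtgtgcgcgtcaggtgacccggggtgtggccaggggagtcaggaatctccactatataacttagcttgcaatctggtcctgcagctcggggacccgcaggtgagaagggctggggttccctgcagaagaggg
Guca2a: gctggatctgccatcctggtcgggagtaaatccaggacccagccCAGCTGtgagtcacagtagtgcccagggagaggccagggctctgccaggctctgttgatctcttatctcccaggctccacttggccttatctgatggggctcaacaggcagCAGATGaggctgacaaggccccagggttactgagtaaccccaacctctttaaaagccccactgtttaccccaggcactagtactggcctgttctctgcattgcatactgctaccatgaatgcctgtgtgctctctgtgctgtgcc

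Goblet cells of suffix 2 and suffix 1 were then compared with each other. Of 8407 genes 226 (2.69%) were at least 1.5-fold higher in suffix 2 with the interval clear of 1, and 182 (2.16%) were at least 1.5-fold lower. The median gene had a log2 ratio of 0.03. From 20 UMIs on, the minimum used for members of lists, 382 of 10776 genes (3.54%) were higher and 303 (2.81%) lower. In the lowest class were 14.4% (11.5 to 17.6) of the members of suffix 2 and 22.7% (18.8 to 27.1) of those of suffix 1, and in the highest 38.9% (34.8 to 43.2) and 34.4% (29.9 to 39.2). Median mitochondrial shares were 5.10% in suffix 2 and 7.09% in suffix 1.

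Most mucus genes were somewhat higher in suffix 2 and below the 1.5-fold mark, with 2 of 17 past it upwards and 1 downwards. Muc2 was 1.42-fold higher (1.39 to 1.44), by class 1.54-fold, 1.32-fold, 1.54-fold and 1.12-fold, and 1.57-fold, past the mark, with a threshold of 0.25%. Its ratio was 1.99 in other cells and 2.76 in lymphocyte barcodes, and the part of free RNA in the goblet cell ratio was not tested. Retnlb, at 57.6 CPM in suffix 2 and 22.6 CPM in suffix 1, was 2.54-fold higher (2.02 to 3.23). Ang4, which is in the antimicrobial list and not in the mucus list, was at 1262 CPM in suffix 2 and 702 CPM in suffix 1. It was 1.80-fold higher (1.72 to 1.88), with a ratio of 1.69 in other cells. Of 20 antimicrobial genes 7 were past the mark upwards and 2 downwards. Over the classes the ratio was 0.224, 2.97, 7.99 and 1.43 for Retnlb, with an interval that held 1 in the lowest class (0.0241 to 1.03), and 1.48, 2.22, 2.06 and 1.33 for Ang4.

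Zg16 was lower in suffix 2, as were 2 others of the 17 mucus genes, Muc3 at 0.519-fold and Dmbt1 at 0.736-fold. Zg16 had 13151 CPM in goblet cells of suffix 2 and 14351 CPM in those of suffix 1, a ratio of 0.916 (0.907 to 0.926), although suffix 2 had more cells in the highest class. Over the 4 classes it was at 501, 1395, 6261 and 32871 CPM in suffix 2, and at 1432, 4438, 10644 and 38496 CPM in suffix 1, lower in suffix 2 in each class, by ratios of 0.350, 0.314, 0.588 and 0.854. In other cells the ratio was 1.66 and in lymphocyte barcodes 1.94. Since Zg16, Clca1 and Fcgbp chose the cells and set the classes, these values are a description, and with a threshold of 0.25% the Zg16 ratio over all members was 1.04.

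Lineage factors were higher in suffix 2 in the low classes. The list of 20 had 3 past the fold upwards and none downwards, and its summed ratio over the classes was 1.57, 1.51, 1.19 and 1.06, against 1.02 in other cells. Spdef had 214 CPM in goblet cells of suffix 2 and 130 CPM in those of suffix 1, 1.64-fold higher (1.48 to 1.82), and by class 1.89-fold, 2.12-fold, 1.55-fold and 1.2-fold. With each cell thinned to 2000 UMIs its ratio was 1.41, below the mark, and without the 10% of members with most UMIs it was 1.47, also below it. Gfi1, a repressor protein that acts in the secretory lineage, and Bhlha15, a factor of secretory cells, were each 1.76-fold higher and, like Retnlb, were named after their values were seen. Klf4 was at 1.32-fold (1.24 to 1.40) in goblet cells and at 0.759-fold in other cells, a difference that was not tested. Hes1 was 0.520-fold (0.460 to 0.587), at 80.3 CPM in suffix 2 and 154 CPM in suffix 1, with 0.619-fold in other cells.

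Interferon-induced genes were higher in suffix 2 nearly throughout, with 25 of 26 past the fold upwards in suffix 2 and none downwards. The oligoadenylate synthetase-like gene Oasl2 had 281 CPM in goblet cells of suffix 2 and 70.7 CPM in those of suffix 1, 3.98-fold higher (3.51 to 4.52), and by class 4.70-fold, 4.76-fold, 3.93-fold and 3.02-fold. Ifi44 had 65.6 CPM in suffix 2 and 8.73 CPM in suffix 1, Ifit1, which binds foreign RNA, 36.7 and 4.95 CPM, and Ifi27l2a, also interferon-induced but not in the list, 32.7 and 2.12 CPM, 15.4-fold higher (7.95 to 34.3). At 2000 UMIs a cell, 37.1% of goblet cells in suffix 2 and 11.9% of those in suffix 1 held a UMI of Oasl2, beside 23.99% and 5.78% of other cells and 3.12% and 0.962% of lymphocyte barcodes in suffix 2 and suffix 1. The summed ratio of the list was 2.50 in members and 2.67 in other cells.

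Antigen presentation genes lay the same way. Of 6 class II genes 5 were past the fold upwards, with the invariant chain Cd74 at 99.1 CPM in goblet cells of suffix 2 and 45.5 CPM in those of suffix 1, 2.18-fold (1.84 to 2.58), beside 2.41-fold in other cells. Of 15 class I genes 8 were past it upwards and 1 downwards, with H2-K1 at 1117 CPM in suffix 2 and 627 CPM in suffix 1 and a ratio of 1.78 (1.70 to 1.86), beside 1.69 in other cells. Between goblet cells and other cells class II genes were lower in goblet cells, 5 of 7 past the 2-fold mark, with Cd74 at 0.416-fold in suffix 2 and 0.461-fold in suffix 1.

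Promoters of genes that were higher in suffix 2 were searched for the core GAAANNGAAA of the interferon-stimulated response element on both strands. It was found in 10 of 19 interferon-induced genes with a RefSeq entry, of 28 in the list, and in 5 of 10 with an entry among the 15 highest genes of the comparison, against 3.44% of all promoters of the table. The promoters of Ifit1 (chr19:34640639-34640938, plus strand) and of Slfn5 (chr11:82951852-82952151, plus strand) are shown for this motif on either strand, 5′ to 3′, with matches in capitals.
Ifit1: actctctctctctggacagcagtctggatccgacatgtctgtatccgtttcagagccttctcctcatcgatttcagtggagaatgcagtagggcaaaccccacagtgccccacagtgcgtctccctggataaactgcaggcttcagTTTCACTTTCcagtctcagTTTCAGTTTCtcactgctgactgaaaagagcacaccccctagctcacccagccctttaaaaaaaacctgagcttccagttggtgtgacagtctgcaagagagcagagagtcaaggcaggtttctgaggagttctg
Slfn5: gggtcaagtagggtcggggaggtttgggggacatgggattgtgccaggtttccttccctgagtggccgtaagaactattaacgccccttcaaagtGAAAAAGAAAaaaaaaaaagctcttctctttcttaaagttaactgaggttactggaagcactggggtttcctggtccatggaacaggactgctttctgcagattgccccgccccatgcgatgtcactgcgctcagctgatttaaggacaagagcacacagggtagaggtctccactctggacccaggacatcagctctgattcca

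Metabolic and absorptive genes led the transcripts that were lower in goblet cells of suffix 2. Akr1c19, an aldo-keto reductase, had 19.1 CPM in suffix 2 and 53.1 CPM in suffix 1, 0.361-fold (0.284 to 0.456), and lay lower in suffix 2 in all 4 classes. The glutathione transferase Mgst1 was at 124 and 251 CPM, 0.494-fold (0.449 to 0.544), the retinal dehydrogenase Aldh1a1 at 38.3 and 88.2 CPM, 0.434-fold (0.365 to 0.515), and Otc, an enzyme of the urea cycle, at 83.2 and 167 CPM, 0.498-fold (0.442 to 0.561). In other cells these ratios were 0.941 for Akr1c19, 1.05 for Mgst1, 0.957 for Aldh1a1 and 0.931 for Otc. The peptidase Mme was at 0.466-fold in goblet cells and 0.951-fold in other cells. All 5 were also lower in goblet cells than in other cells, Mgst1 for instance at 124 CPM in goblet cells and 562 CPM in other cells of suffix 2, and at 251 CPM in goblet cells and 533 CPM in other cells of suffix 1. How far free RNA or doublets with absorptive cells enter these low levels was not tested. The unnamed gene model Gm47283, at 2.15 CPM in suffix 2 and 36.3 CPM in suffix 1, had like ratios of 0.059 in goblet cells and 0.063 in other cells. GENCODE M21 places Gm47283 on chromosome Y. The sex of the animals is not given, and a difference in sex or background between the libraries was not tested.

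Enteroendocrine transcripts were higher in goblet cells of suffix 2 with like ratios in other cells. Of 14 such genes 10 were past the fold upwards and none downwards, and Gip, an incretin hormone of enteroendocrine cells, had 44.5 CPM in goblet cells of suffix 2 and 5.42 CPM in those of suffix 1. Its ratio was 8.21 in goblet cells, 7.68 in other cells and 6.74 in lymphocyte barcodes. Tuft cell genes had 7 of 10 past the fold upwards, with a median log2 ratio of 2.31. Their summed ratio was 1.30 in goblet cells and 1.25 in other cells, and over the classes 1.999, 1.40, 1.30 and 0.932. The tuft gene Sh2d6 was 9.71-fold higher, by class 87.5-fold, 7.56-fold, 1.84-fold and 5.35-fold, with 24.6% of its UMIs in 1 cell and a ratio of 7.13 without it, and Nrep was 10.5-fold higher, with 82.4% of its UMIs in 1 cell and a ratio of 1.24 without it.

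Several lists had summed ratios below 1. All 20 ribosomal protein genes were lower in suffix 2, none past the fold, with a summed ratio of 0.863 in goblet cells and 0.861 in other cells. Immediate early genes had 2 of 18 past the fold downwards and a summed ratio of 0.904 in goblet cells and 0.649 in other cells, and Fos was at 1480 CPM in goblet cells of suffix 2 and 1707 CPM in those of suffix 1. Of 22 mitosis genes 2 were past the fold downwards and none upwards, with a summed ratio of 0.799 in goblet cells and 0.842 in other cells. Over the classes the summed ratio of the mitosis list was 0.924, 0.838, 1.24 and 0.787, so it was not below 1 in each class. Of 13 genes of the glucocorticoid response none was past the fold, with a summed ratio of 0.884 in goblet cells and 0.874 in other cells.

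**Figure D5:**
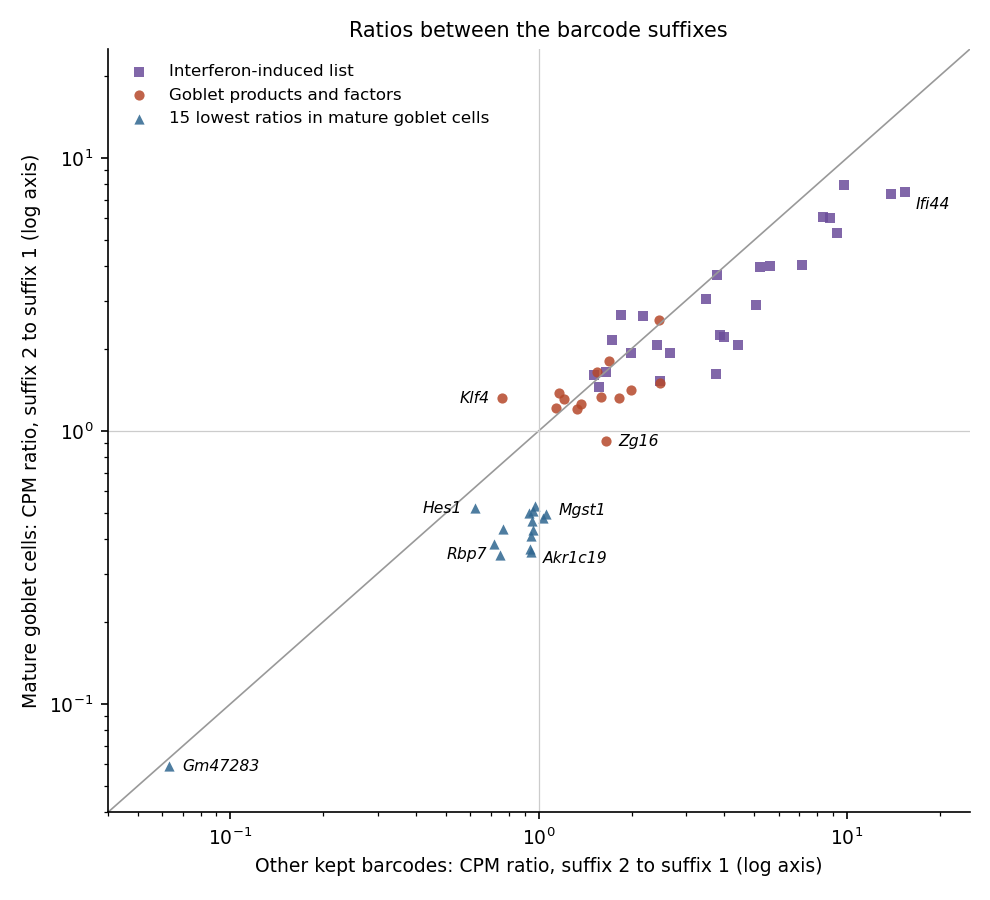
Ratio of suffix 2 to suffix 1 in mature goblet cells (vertical log axis) against the same ratio in all other kept cells (horizontal log axis) for interferon-induced genes, goblet products and factors, and the 15 lowest genes, with the diagonal marking equal ratios. Interferon-induced genes lie above 1 on both axes, most of them below the diagonal (Oasl2 at 3.98 in goblet cells and 5.22 in other cells), Zg16 (0.916 and 1.66) and Akr1c19 (0.361 and 0.941) lie below it, and Klf4 (1.32 and 0.759) lies above it.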

How the data were processed

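Gene expression was measured in single cells of mouse duodenal crypts, 1 library for each of the groups ES and NT. The authors deposited raw UMI counts per gene and barcode in 1 matrix for both libraries, made with Cell Ranger 2.1.1 on the build mm10, per the submitters' processing notes. The rule by which barcodes were called as cells is not stated there or in the labels. Crypts were released with 5 mM EDTA and single cells made with TrypLE for 5 min, per the labels' protocols. The barcodes have 27 bases, more than those of the droplet kit in the labels. Levels were not compared between genes.

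The 31253 features came to 31205 symbols, and 99.5% of their identifiers are in GENCODE M21. Counts were summed over the cells of a set and suffix and given per 1000000 UMIs (CPM). Ratios carry a 95% interval from the exact binomial split of 2 Poisson counts, and shares carry exact Clopper-Pearson intervals. Genes with at least 100 UMIs, and at least 20 in each suffix between sets, were measured. A gene was past the fold at a ratio of 2 in both suffixes between sets and classes, and of 1.5 between suffixes, with the interval clear of 1, which is a rule of size and not a test. For shares of cells each cell was thinned to 2000 UMIs. Lymphocyte barcodes, used for free RNA, had a UMI of Ptprc, a UMI of a Cd3 chain and none of Epcam. Listed symbols numbering 6 could not be matched (Muc17, Best4, Pla2g2a, Gm14851, Gm15284 and Tcrg-C1).

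Named genes were those with the bounds farthest from 1 (20 higher and 10 lower against other cells, 10 and 10 against the early and Paneth barcodes, 15 and 15 between suffixes), up to 6 of each list by UMIs, the cell type markers and the 10 most like Muc2 (ties ordered by Pearson's r). The members and gene lists were chosen with earlier results of these data known. The ratio and interval code was tested on simulated counts. Python 3.11.15, numpy 2.4.6, scipy 1.17.1 and pandas 2.3.3 were used. Alternatives were the share threshold, gene and mitochondrial filters, leaving out the 10% of members with most UMIs, fold, UMI minimum, thinning, scaling and per-cell means. Kept barcodes had 635 to 64518 UMIs.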

Additional observations from a re-analysis of the deposited data

Results flagged for a closer look

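The ratio of suffix 2 to suffix 1 in goblet cells lay opposite to that in early secretory barcodes, both past 1.5-fold with the interval clear of 1, for 3 genes, and the difference was not tested. Akr1c19 was at 0.361 (0.284 to 0.456) in goblet cells and 2.15 (1.60 to 2.89) in early barcodes. Aldh1a1 was at 0.434 (0.365 to 0.515) in goblet cells and 1.95 (1.49 to 2.55) in early barcodes. Gstm3, a glutathione transferase, was at 0.509 (0.451 to 0.574) in goblet cells and 1.58 (1.32 to 1.89) in early barcodes. Its goblet cell ratio was 0.704 without the 10% of members with most UMIs and 0.703 after thinning to 2000 UMIs, short of the 1.5-fold mark.

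Goblet cell transcripts were also found among barcodes outside the comparisons. Of 4972 barcodes that failed the gene or mitochondrial filter 291 (5.85%, 5.22 to 6.54) had at least 0.5% of UMIs from Clca1, Zg16 and Fcgbp, 158 of 2719 (5.81%) in suffix 2 and 133 of 2253 (5.90%) in suffix 1. They had a median of 652 UMIs and 426 genes, 227 had fewer than 500 genes and 90 were over the mitochondrial limit.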

How the results depend on the processing

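With the share threshold at 1% the members made up 12.2% of kept barcodes in suffix 2 and 7.96% in suffix 1, at 0.25% 16.2% and 12.6%, with at most 10% mitochondrial UMIs 19.6% and 14.9%, and without the 10% of members with most UMIs 12.8% and 9.29%. The 343 genes higher than in early barcodes came to 144 at 3-fold, 207 from 500 UMIs and 171 after thinning, and the 103 lower ones to 210 at the 1% threshold, 49 at 0.25%, 248 without those 10%, 12 at 3-fold, 28 from 500 UMIs and 47 after thinning. Against other cells, 3-fold gave 338 higher and 515 lower, and 500 UMIs gave 568 lower. Against Paneth barcodes 3-fold gave 1519 higher, 500 UMIs 2927 higher and 34 lower, thinning 1757 and 30, and centring 258 and 236. Between suffixes 2-fold gave 68 higher and 19 lower, 20 UMIs 382 and 303, 500 UMIs 45 and 40, and thinning 82 and 43. The other counts stayed within 1.5 times. The cause of each shift was not tested, save that a higher fold or minimum leaves fewer genes by construction.

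Among single genes 1 ratio turned round: Fabp1 between suffixes had a log2 ratio of -0.60 over all members and 0.020 without those 10%. Of the values of single genes against other cells, 5039 kept their call or stayed within their interval, and 981 shifted beyond that interval. The interval was the measure only for genes not past the fold and, for all genes, with per-cell means or equal weight to the classes. Another 152 values fell short of the fold and 54 newly passed it. Between suffixes these counts were 2881, 420, 62 and 16. Against other cells in suffix 1, Papss2 was at 0.541-fold with at most 10% mitochondrial UMIs, Clca3b at 0.554-fold and Cd74 at 0.570-fold with the 0.25% threshold, which ended the calls, as did 1.996-fold for Sec61b. Without the 10% of members with most UMIs Hes1 (0.384-fold in suffix 2 and 0.433-fold in suffix 1) and Il13ra1 (2.04-fold and 2.08-fold) passed the fold, and with at most 10% mitochondrial UMIs so did Oasl2 (2.01-fold and 2.56-fold) and Itln1 (0.381-fold and 0.296-fold). Equal weight to the 4 classes, leaving out the cell with most UMIs of a gene, and leaving out barcodes found under both suffixes were alternatives chosen after seeing the data. Members with a barcode under both suffixes numbered 5. Depth limits genes under about 100 UMIs, and doublets, animals and the part of free RNA could not be resolved. No paired analysis was possible because each group is 1 library.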
